A study of Mus musculus with 3 samples.

Results

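The cells described here are bone marrow niche cells that carried transcripts of 4 skeletal muscle lineage genes. Barcodes counted as cells when they held 1000 or more unique molecular identifiers (UMIs, 1 per captured transcript) and 500 or more genes, with under 10% of UMIs in mitochondrial genes. Members held at least 3 UMIs over Pax7, Myf5, Myod1 and Chrdl2 together, and none of Cdh5 or Ptprc, which mark endothelial cells and leukocytes. The rule found 151 of 16318 called cells: 116 of 7129 in the WT library, 30 of 3621 in the BMT library and 5 of 5568 in the aGVHD library. The 4 genes and the 2 excluded ones chose the cells, so their levels in the members are given as a description.

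The series holds 3 droplet libraries, 1 per group, of sorted CB6F1 mouse cells. The WT library came from untreated females. The BMT mice were female CB6F1 recipients irradiated with 4.0 Gy given 2 times and, 4 hours later, given bone marrow cells of CD45.1+ B6.SJL donors by vein; the aGVHD mice received, beyond that, spleen cells of female C57BL/6 donors, which sets off acute graft-versus-host disease. In every group live cells were sorted after depletion of CD45, lineage and CD71 positive cells. The number of mice per library, their age and the days after transplantation are not stated in the labels. With 1 library per group, library and group cannot be told apart, no test between groups is possible, and every interval below is an exact 95% interval for counting error only.

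Skeletal muscle keeps its own stem cells, the satellite cells, under the sheath of each fibre. Pax7 is the transcription factor that defines them, Myf5 and Myod1 are the determination factors that commit them to muscle, and Myog, the next factor in the series, drives withdrawal from the cell cycle and differentiation. Myoblasts then fuse into fibres that make sarcomeric actin, myosin and creatine kinase. Notch signalling holds satellite cells quiescent, and Chrdl2 encodes a secreted antagonist of bone morphogenetic proteins (BMPs). The labels do not say whether muscle adhering to the bones was removed.

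In the GRCm38 annotation Pax7 lies on chromosome 4 at 139737062 to 139833528 and Myf5 on chromosome 10 at 107482908 to 107486134. Myod1 (46376474 to 46379099) and Chrdl2 (100006172 to 100034728) both lie on chromosome 7, and Myog on chromosome 1 at 134289989 to 134292548. Myod1 and Myog bind the E-box, CANNTG, which reads the same on both strands. Of these 5 genes and Chodl, 4 of 6 symbols matched the RefSeq promoter table of build GRCm38.p6. The 250 bases before the RefSeq start of Myog are shown because no member held a UMI of that gene. Those of Chodl are shown because it was the most abundant of the 5 satellite cell genes that are set beside the label below. The Myog window is chr1:134289754-134290003 and the Chodl window chr16:78930698-78930947, both on the plus strand, written 5′ to 3′ with each CANNTG in capitals.
Myog: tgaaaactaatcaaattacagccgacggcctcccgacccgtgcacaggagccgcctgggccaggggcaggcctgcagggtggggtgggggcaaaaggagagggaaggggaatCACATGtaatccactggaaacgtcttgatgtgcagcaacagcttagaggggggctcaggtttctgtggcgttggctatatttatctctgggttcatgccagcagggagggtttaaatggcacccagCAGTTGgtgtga
Chodl: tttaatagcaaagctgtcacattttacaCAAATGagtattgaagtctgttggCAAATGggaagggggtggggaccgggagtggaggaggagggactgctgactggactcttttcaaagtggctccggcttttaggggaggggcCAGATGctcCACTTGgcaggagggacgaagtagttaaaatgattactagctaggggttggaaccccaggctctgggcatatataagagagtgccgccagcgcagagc
The Myog window held 2 matches and the Chodl window 4. At least 1 match stood in 66.2% of all 32851 promoter windows of this length, at least 2 in 31.8% and at least 4 in 3.8%. The matches describe the windows and are no evidence of binding.

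The label was set beside muscle genes that the rule did not use, Chodl, Des, Fgfr4, Asb5 and Cdh15. They were chosen after the data were seen, so they describe the members and are no independent check. Among the other 7013 WT called cells Chodl was seen in 243, Des in 625, Fgfr4 in 40, Asb5 in 41 and Cdh15 in 111. Of the 116 WT members, 95 held a UMI of Pax7, Myf5 or Myod1, and 94 of these 95 also held a UMI of Chodl, Des, Fgfr4, Asb5 or Cdh15, genes known from satellite cells. The other 21 WT members were chosen by Chrdl2 alone. All 21 held at least 5 UMIs of Acan, the cartilage proteoglycan aggrecan, and none held a UMI of Chodl, Des, Fgfr4, Asb5 or Cdh15. In these 21 cells Acan ranged from 5 to 69 UMIs (median 21), Prg4, the joint lubricant lubricin, from 1 to 3742 (median 282) and Cytl1, a cartilage cytokine, from 1 to 858 (median 268). The data therefore go against the muscle label for the Chrdl2-only WT members, which carried cartilage and joint genes. Summed over cells and scaled to UMIs of a set (CPM, UMIs per 1e6), Prg4 stood at 65329 CPM in them against 58.5 in the muscle members described next. Of 1867 genes measured between the same 2 sets, 315 (16.9%) were higher and 480 (25.7%) lower in the Chrdl2-only cells, with all 6 measured of 7 chondrocyte markers higher and 16 of 19 measured satellite cell genes lower. The muscle members were kept only with few chondrocyte marker UMIs, as described next, so the chondrocyte difference is partly set by that choice. In BMT the 2 Chrdl2-only members did hold satellite cell genes, 9 and 16 UMIs of the 5, and one of them also held 4714 UMIs of the haemoglobin gene Hbb-bs.

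Some barcodes with a Pax7, Myf5 or Myod1 UMI also held many transcripts of another cell type. A member was called unmixed when it had such a UMI and under 1% of its UMIs in each of 12 marker lists of other marrow cell types, a limit chosen after the values were seen. This left 86 WT, 24 BMT and 5 aGVHD cells and set aside 9 WT and 4 BMT cells, which had 1.02% to 58.2% of UMIs in another type's list. The WT cell just inside the limit had 0.964%, from smooth muscle and pericyte genes. Unmixed members had a median of 5403 UMIs in WT, 5350.5 in BMT and 2747 in aGVHD, below the medians of all called cells (7355, 6932 and 6977.5). Haemoglobin stood in them at 0.395%, 0.742% and 0.463% of its level in the empty droplets of the WT, BMT and aGVHD libraries, and the neutrophil genes S100a8 and S100a9 at 1.0%, 0.390% and 0.878%. Both gene sets are among those by which unmixed cells were defined, so these shares are of the cells kept.

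**Figure D1:**
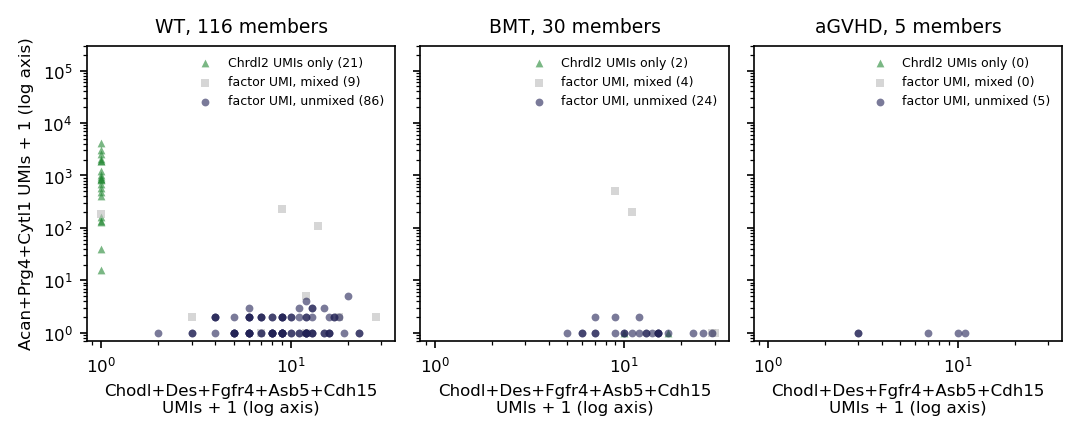
Each point is 1 member; the horizontal axis gives UMIs over 5 satellite cell genes plus 1 and the vertical axis UMIs over the cartilage and joint genes Acan, Prg4 and Cytl1 plus 1, both on log axes, in the WT, BMT and aGVHD libraries. The 21 green WT triangles, chosen by Chrdl2 alone, stand at 0 satellite cell UMIs, while the dark unmixed members lie along the bottom of each panel.

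Members made up 1.63% of called cells in WT (interval 1.35% to 1.95%), 0.829% in BMT (0.560% to 1.18%) and 0.0898% in aGVHD (0.0292% to 0.209%). The BMT share was 1.96-fold lower than the WT share (interval 1.31 to 3.04), and the aGVHD share 18.1-fold lower (7.55 to 56.9). Counted as unmixed members, the shares were 1.21%, 0.663% and 0.0898%. Chosen instead by at least 3 of 7 satellite cell genes outside the rule (Chodl, Fgfr4, Asb5, Cdh15, Des, Calcr, Heyl), the cells numbered 116, 35 and 13, and the aGVHD share was then 6.97-fold below WT (3.92 to 13.5). The order WT, BMT, aGVHD was the same in all of these counts.

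The size of the differences depended on which cells stood in the denominator and on depth. Among cells with no Ptprc UMI and at least 5 UMIs over 8 matrix genes, called stromal cells here although vessel cells also make some of these genes, members were 1.84% in WT and 1.36% in BMT, and the interval of that ratio (0.471 to 1.12) held 1. With each cell thinned to 2000 UMIs, 24, 8 and 4 cells still met the rule, the BMT to WT ratio was 0.657 (0.255 to 1.51) and the aGVHD to WT ratio 0.225 (0.0566 to 0.654). The aGVHD members were shallow, from 1971 to 5015 UMIs, and the aGVHD library held 15 cells with 1 marker UMI and 5 with 2, just outside the rule, against none with 3 or 4. WT had 53 cells with 1, 28 with 2, 36 with 3 and 23 with 4 marker UMIs. A lower share can be fewer muscle cells or more cells of other kinds in the sort, and these cannot be told apart here. Among leukocytes, cells with a Ptprc UMI, none of 474, 1077 and 1309 reached 3 marker UMIs, with upper limits of 0.775%, 0.342% and 0.281% by the exact interval. Among endothelial cells with at least 3 Cdh5 UMIs, the rule's UMI minimum was met by 2 of 375 (WT), 5 of 735 (BMT) and 0 of 747 (aGVHD), all left out by the rule.

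**Figure D2:**
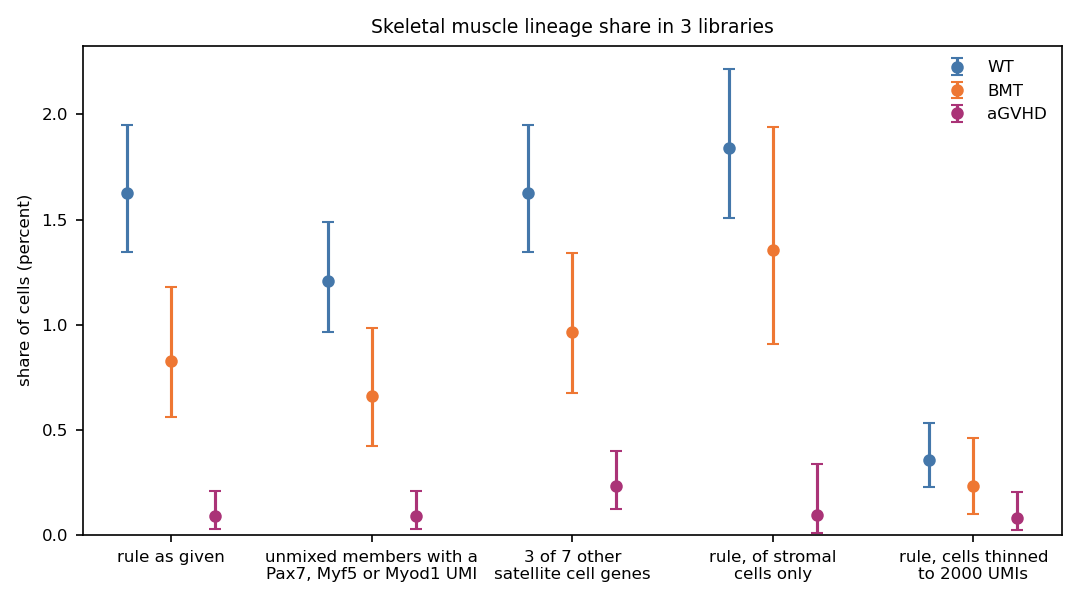
Share of cells in percent for the WT, BMT and aGVHD libraries under 5 ways of counting, with exact 95% intervals for counting error as bars. The aGVHD point is the lowest of the 3 in every way of counting, and the WT and BMT intervals overlap for stromal cells (1.84% and 1.36%), for thinned cells and, at their ends, for unmixed members (1.21% and 0.663%).

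Among the 86 unmixed WT members Pax7 was detected in 68, Myf5 in 71, Myod1 in 32 and Chrdl2 in 31. The highest cell held 7 UMIs of Pax7, 10 of Myf5, 7 of Myod1 and 7 of Chrdl2. Myod1 and Chrdl2 seldom met: of the 32 cells with Myod1, 2 held Chrdl2, while 29 of the 54 without Myod1 did. Myf5 and Chrdl2 met often, in 30 of 31 cells with Chrdl2 against 41 of 55 without. Because the rule adds the 4 genes up, a cell with little of one needed more of another to enter, so these shares are a description of the members chosen.

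In the 24 unmixed BMT members Pax7 was detected in 20, Myf5 in 10, Myod1 in 12 and Chrdl2 in 9. The median BMT cell held 3 UMIs of Pax7 and 0 of Myf5, against 1 and 2 in WT at nearly the same depth. Pax7 stood at 511 CPM in BMT and 288 in WT, and Myf5 at 106 and 387. Myod1 stood at 454 CPM in BMT against 139 in WT, with up to 23 of its 64 BMT UMIs in 1 cell.

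Most satellite cell identity genes were higher in the WT members than in the other WT cells. A gene was counted as higher or lower when at least 50 UMIs were seen in both sets together, the CPM differed at least 2-fold and the interval of the ratio excluded 1. All 116 WT members against the other WT called cells gave 511 genes higher (3.66%) and 2173 lower (15.6%) of 13967 measured. For the 86 unmixed members the counts were 763 higher (5.47%) and 2509 lower (18.0%) of 13957. Of the 28 satellite cell identity genes 27 were measured, 21 were higher and 2 lower, with a median log2 ratio of 2.78 against -0.12 over all genes measured. These cells were chosen by genes of the same libraries, so the counts describe the members and test nothing.

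Chodl, a membrane lectin, was detected in 81 of the 86 unmixed WT members, at 0 to 11 UMIs (median 3), and stood at 669 CPM (interval 599 to 745) against 15.1 in the other called cells. Des, the intermediate filament desmin, was detected in 73 cells at 472 CPM against 19.5. Fgfr4, a fibroblast growth factor receptor, stood at 133 CPM against 0.748, and Asb5, a ubiquitin ligase adaptor, at 137 against 0.719. Cdh15, the muscle adhesion protein M-cadherin, stood at 115 CPM in 37 of 86 cells. Calcr, the calcitonin receptor of quiescent satellite cells, stood at 64.5 CPM in 24 cells against 0.230 in the other called cells, with too few UMIs in all to be counted. Heyl, a Notch target, was detected in 43 cells at 194 CPM. Sdc4, a cell surface proteoglycan, was abundant in all cells (1391 CPM against 450). The 2 lower ones were Sdc3 (14.1 against 78.3) and Cd34 (84.7 against 242), which other marrow stroma and vessels also make.

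Beyond the satellite cell identity list, unmixed WT members had high levels of Lmod2 (actin filament leiomodin, 115 CPM against 0.647), Drp2 (a dystrophin relative, 101 against 1.65) and Prox1 (a transcription factor, 204 against 4.24). Chrnb1, the beta subunit of the muscle acetylcholine receptor, stood at 105 CPM against 2.10, and Jsrp1, a protein of the calcium release junction, at 92.7 against 1.74. P2ry14, En1, Rtn2, Clcf1 and Hsd11b1 were between 21.2 and 35.1-fold higher. The BMT unmixed members against the other BMT cells gave 678 genes higher (5.15%) and 1324 lower (10.1%) of 13153. Of the 28 satellite cell genes 24 were measured, 17 were higher and 2 lower.

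Transcripts of the differentiation factor were not detected in any member. Myog had no UMI in the 116 WT, 30 BMT and 5 aGVHD members. By the exact interval this allows a share of cells with a UMI of up to 3.13% in WT, 11.6% in BMT and 52.2% in aGVHD. This limits detection at these depths and not the share of cells that express the gene. Members needed at least 3 UMIs of the rule genes, which the Myog cells described below did not hold. The absence of Myog in members is therefore partly set by their choice. Myf6 and Pax3 were also at 0 in all members. Tmem8c and Gm7325, older symbols of the fusion genes myomaker and myomixer, had no UMI in unmixed WT or BMT members.

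Myog was present in the WT library, in 3 called cells outside the rule with 58, 7 and 1 UMIs. The cell with 58 Myog UMIs held 2 of Myod1, 16 of the skeletal actin Acta1 and 5 of myomaker, and missed the rule by 1 marker UMI. The cell with 7 held 1 of Myod1, 7 of Des and 3 of Chodl. The third held a Ptprc UMI.

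Acta1 (skeletal actin), Ckm (muscle creatine kinase) and Tnnt3 (fast troponin T) together gave 1 UMI over the 86 unmixed WT cells. Barcodes with at least 10 UMIs over these 3 genes numbered 3 in WT, 4 in BMT and 4 in aGVHD, and none was a member. Each held 0 to 2 UMIs of the rule genes, short of the rule's 3. The low fibre counts in members are therefore partly set by their choice. Not all of the barcodes outside the rule were plain fibre barcodes. In WT the cell with 58 Myog UMIs was among them, and a BMT barcode held 35 Col1a1 UMIs. In aGVHD a barcode held 784 S100a8 UMIs, another 5459 Hbb-bs UMIs, and another 33 of Acta1 without any of Ckm or Tnnt3. Summed over all 34 contractile and fibre genes the unmixed WT members held 165 UMIs in 66 of 86 cells, with 45 in the highest cell, or 333 CPM against 680 in other called cells. Of the 34 genes 19 were measured in unmixed WT members, 3 higher and 5 lower than in other called cells. Over all genes measured 5.47% were higher and 18.0% lower. The median log2 ratio of the contractile genes was 0.75 against -0.12 over all genes, although their sum was lower. The 3 higher contractile genes were Mybpc1 (80.6 CPM against 0.561), Tnnt1 (26.2 against 3.64) and Actn3 (20.2 against 1.21), proteins of the sarcomere. Mylpf and Myl1, fast myosin light chains, had no UMI in unmixed WT members.

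Of the 25 commitment and fusion genes in the files 15 were measured. Beside 5.47% higher and 18.0% lower over all genes measured, 7 of these 15 were higher and 3 lower. The higher ones with the largest ratios were the acetylcholine receptor subunits Chrna1 (46.4 CPM against 0.504) and Chrnb1, the junction gene Jsrp1 and the receptor kinase Musk (24.2 against 0.691). The lower ones were Cdkn1c (22.2 against 196), Hes6 and Myl4. In BMT the 24 unmixed members held 4 Acta1 UMIs in 3 cells, 3 of Ckm in 2 and 10 of Tnnt3 in 4. Free RNA at the haemoglobin share given above would amount to 0.702 CPM of Acta1, and at the S100a8 and S100a9 share to 0.370, against 28.4 measured. The choice of unmixed cells capped both shares, and whether free RNA has a part in these counts was not tested. Against the other BMT cells 8 of 20 measured contractile genes were higher in the unmixed BMT members and 1 lower. Over all genes measured 5.15% were higher and 10.1% lower. The median log2 ratio was 2.37 for the contractile genes and 0.36 over all genes.

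**Figure D3:**
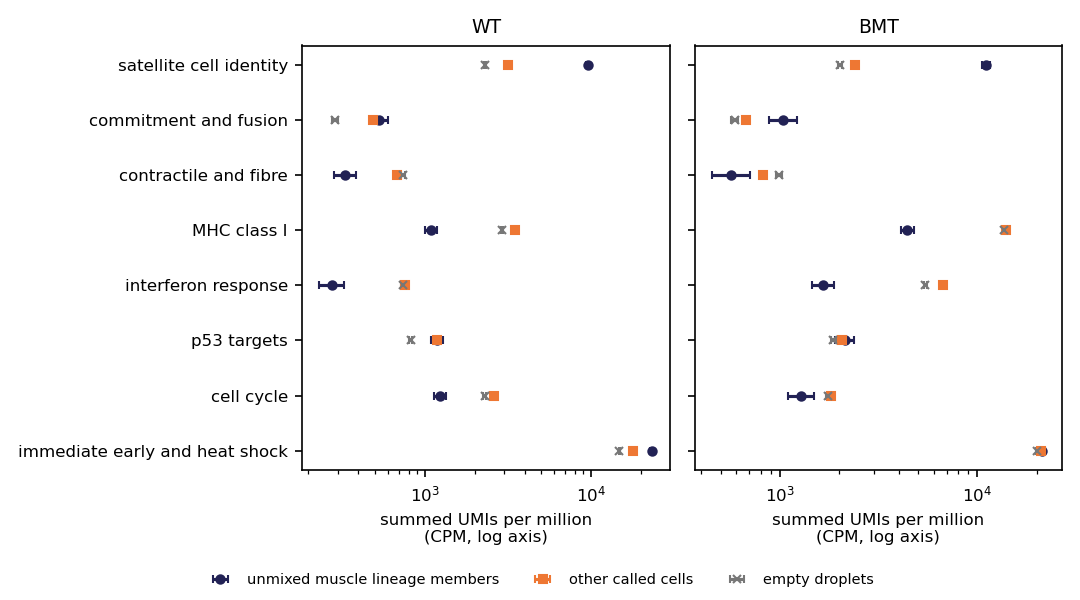
Summed level of 8 gene lists in CPM on a log axis, for unmixed members, other called cells and empty droplets, in the WT and BMT libraries; bars are exact 95% Poisson intervals. The satellite cell list stands at 9609 CPM in WT and 11060 in BMT members, above other cells and empty droplets. By its sum the contractile and fibre list lies below both in both libraries. The median log2 ratio of its measured genes over other cells was above that of all genes, at 0.75 in WT and 2.37 in BMT.

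Of 18 Notch pathway genes 6 were higher in unmixed WT members than in other called cells and none lower, beside 5.47% higher and 18.0% lower over all genes measured. Over all WT members the list gave 4 higher and 2 lower. They included the receptors Notch3 (331 CPM against 66.7) and Notch1 (109 against 29.3) and the target Hey1 (50.4 against 8.16). Of 33 receptor genes 7 were higher and 12 lower. Tnfrsf12a, the receptor of the cytokine TWEAK, was the highest in level at 655 CPM against 81.2, and Met, the hepatocyte growth factor receptor, was 6.86-fold higher. The lower ones included Pdgfra, Pdgfrb and Lepr, at 2.02, 12.1 and 4.03 CPM, of which Pdgfra and Lepr were among the markers that defined unmixed cells.

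Most matrix and cell cycle genes were lower. Beside 18.0% lower and 5.47% higher over all genes measured, 23 of 31 matrix genes were lower and 1 higher. The higher one was Lama2, the laminin chain of the muscle basement membrane, at 117 CPM against 26.2. Fn1, fibronectin, stood at 16.1 against 3263. Of 24 cell cycle genes 17 were lower and 1 higher; Mki67 had 3 UMIs, all in 1 of 86 unmixed WT cells, and Top2a had 3 in 3 cells. Among growth and stress genes Cebpb (1734 CPM against 535) and the anti-proliferative gene Btg1 (1461 against 493) were higher. MHC class I genes were lower in 9 of 12, with B2m at 234 CPM against 985, and interferon response genes in 13 of 25.

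No member had a Myog UMI, so a planned split of the WT members by Myog could not be made. The unmixed WT members were split by Myod1 instead, into 32 cells with a UMI (median depth 5235) and 54 without (5684). Of 1163 genes measured, 11 (0.946%) were higher and 19 (1.63%) lower in the cells with Myod1, Myod1 itself included. Without the cell holding most UMIs of each gene, 8 and 10 remained. The lower genes were led by Gal, the neuropeptide galanin (22.7 CPM against 213, 9.39-fold, interval 3.50 to 35.5), Chrdl2 and the imprinted non-coding RNA Meg3 (544 against 1533, 2.82-fold, 2.26 to 3.55). Chrdl2 counts toward the rule's minimum, so cells without Myod1 needed more of it or of Pax7 and Myf5, and its difference follows in part from the choice of members. The higher genes included Sat1, a polyamine enzyme (419 against 175), and Gas6, a ligand of the TAM receptors (204 against 72.0). Satellite cell genes did not pass in either direction: of 28, 18 were measured and none was higher or lower, nor was any Notch gene among 6 measured.

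All BMT members against all WT members gave 186 genes higher (6.78%) and 237 lower (8.64%) of 2743 measured. Single barcodes carried many of these. Cxcl9 led the higher genes with 269 UMIs, 268 of them in 1 cell, and the platelet gene Pf4 had 175 of 181 in 1 cell. The lower genes were led by cartilage genes of the Chrdl2-only WT cells, such as Cytl1, at 7647 CPM in WT and 0 in BMT. Without the cell holding most UMIs of each gene, 109 and 206 remained. The comparison below therefore uses the 24 unmixed BMT and 86 unmixed WT members.

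Between these, 65 genes were higher in BMT (4.21%) and 77 lower (4.99%) of 1543 measured, and 45 and 62 still had an interval excluding 1 without the cell holding most UMIs of each gene. With a limit of 2% for other cell types' genes (27 BMT and 89 WT cells) the counts were 140 higher and 82 lower. The satellite cell identity genes had a median log2 ratio of -0.00 against -0.03 over all genes: of 28, 19 were measured, 1 was higher and 1 lower. The lower one was Heyl (92.3 CPM against 194); it was short of 2-fold over all members (ratio 0.542) and without its highest cell (0.520).

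Fam132b had the largest ratio. It encodes erythroferrone, a secreted hormone best known from erythroblasts. BMT members held 0 to 13 UMIs (12 of 24 cells with any) and WT members 0 to 3 (11 of 86 cells with any), or 518 CPM against 34.3, 15.1-fold (interval 8.83 to 27.4). The other 12 BMT cells held none, so the groups overlapped. Without the BMT cell with the most UMIs the ratio was 12.4. Over the 6 erythroid genes BMT members held 22 UMIs (156 CPM) and WT members 264 (532 CPM), levels that the limit on other cell types' genes capped; whether erythroid RNA has a part in the Fam132b values was not tested. In the other stromal cells Fam132b stood at 0.477 CPM in BMT and 0.501 in WT.

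MHC class I genes were higher in BMT members: of 12, 4 were measured and all 4 were higher, beside 4.21% of all genes measured. B2m, the light chain shared by class I molecules, ranged from 1 to 18 UMIs per BMT cell (median 5) and from 0 to 6 in WT (median 1), or 1129 against 234 CPM, 4.83-fold (3.78 to 6.19). H2-D1 ranged from 2 to 27 in BMT and from 0 to 12 in WT (4.07-fold, 3.40 to 4.88), H2-K1 was 4.36-fold higher (3.26 to 5.84) and H2-Q4 2.43-fold (1.48 to 3.92). In the other stromal cells of these libraries B2m was 4.68-fold, H2-D1 4.28-fold and H2-K1 5.10-fold higher in BMT, each within the members' interval, and H2-Q4 was 6.71-fold higher, above it. Free RNA at the haemoglobin share given above would amount to 23.3 CPM of B2m in BMT members, and at the S100a8 and S100a9 share to 12.3 CPM. The choice of unmixed cells capped both shares, and whether free RNA has a part in the class I values was not tested. The summed interferon response list stood at 1661 CPM in BMT members, with 68 of its 234 UMIs in 1 cell, against 276 in WT members and 6718 in other BMT cells. Of its 25 genes only 1 was measured between BMT and WT members, and it was neither higher nor lower (log2 ratio -0.18).

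Cdkn1a, the cell cycle inhibitor p21 and a p53 target, was detected in 23 of 24 BMT and 39 of 86 WT members, at 738 against 167 CPM (4.41-fold, 3.28 to 5.96). The highest BMT cell held 24 UMIs and the highest WT cell 8, and the cells overlapped at low counts. In the other stromal cells it was 2.60-fold higher in BMT. Cdkn1a was the 1 gene called among 4 p53 targets measured of 20, beside 4.21% higher over all genes measured. The summed p53 target list stood at 2122 CPM in BMT against 1187 in WT members. Cell cycle genes did not pass in either direction, with 4 of 24 measured.

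Further genes that were higher in BMT members were Gas6 (660 against 119 CPM, 5.55-fold), Ier5, an immediate early response gene (575 against 141), Smchd1, a chromatin protein (213 against 48.4), Lpl, lipoprotein lipase (227 against 62.5), and Pmepa1, a TGF-beta induced gene (2.31-fold). Myod1, a rule gene, was 3.27-fold higher, which describes the members chosen. In the other stromal cells Pmepa1 went the other way, at 0.679 of the WT level, while Gas6 was 2.12-fold and Lpl 7.08-fold higher.

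Several regulators were lower in BMT members. Myf5 was 3.63-fold lower, but the rule adds it to Pax7, Myod1 and Chrdl2, so its difference describes the members chosen. The Notch targets Hes1 (149 against 391 CPM, 2.62-fold, interval 1.67 to 4.33) and Heyl were the 2 lower of 6 Notch pathway genes measured of 18, beside 4.99% lower over all genes measured; over all members 1 of 6 was lower. Against the same 4.99%, of 20 BMP and TGF-beta genes 8 were measured and 4 were lower: the BMP targets Id1 (170 against 397) and Id2 (114 against 290), the binding protein Ltbp4 (277 against 647) and the ligand Bmp4 (92.3 against 190). In the other stromal cells Id2 was also lower (0.352 of the WT level), Hes1 stood at 0.872, Id1 at 1.05 and Heyl at 1.43.

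The chemokine Cxcl1 (355 against 1060 CPM), the NF-kB inhibitor Nfkbia (0.447 of the WT level, interval 0.367 to 0.540) and the early gene Ier3 (185 against 534) were lower in BMT members. Of 28 immediate early and heat shock genes 25 were measured, 4 were lower (Fosl2, Ier3, Hspa1b, Dnajb1) and none higher. Over all genes measured 4.99% were lower and 4.21% higher. Dnajb1 did not hold without its highest cell. Over all members Nfkbia stood at 0.626 of the WT level, past the interval and short of 2-fold. Cxcl1 was not lower over all members (ratio 1.05), nor was Igfbp5 (1.09), which was 2.96-fold lower in unmixed members. Lmod2 had 57 UMIs in 22 of 86 WT cells and 1 UMI in the 24 BMT cells, and it was also lower in the other stromal cells (45 UMIs against 1). Ankrd1, a stretch-responsive muscle gene, held 159 UMIs in 21 WT cells, 80 of them in 1 cell; its ratio was 0.177, and 0.357 without that cell. Acta2 and Tagln were also lower, but they are smooth muscle markers by which unmixed cells were defined.

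**Figure D4:**
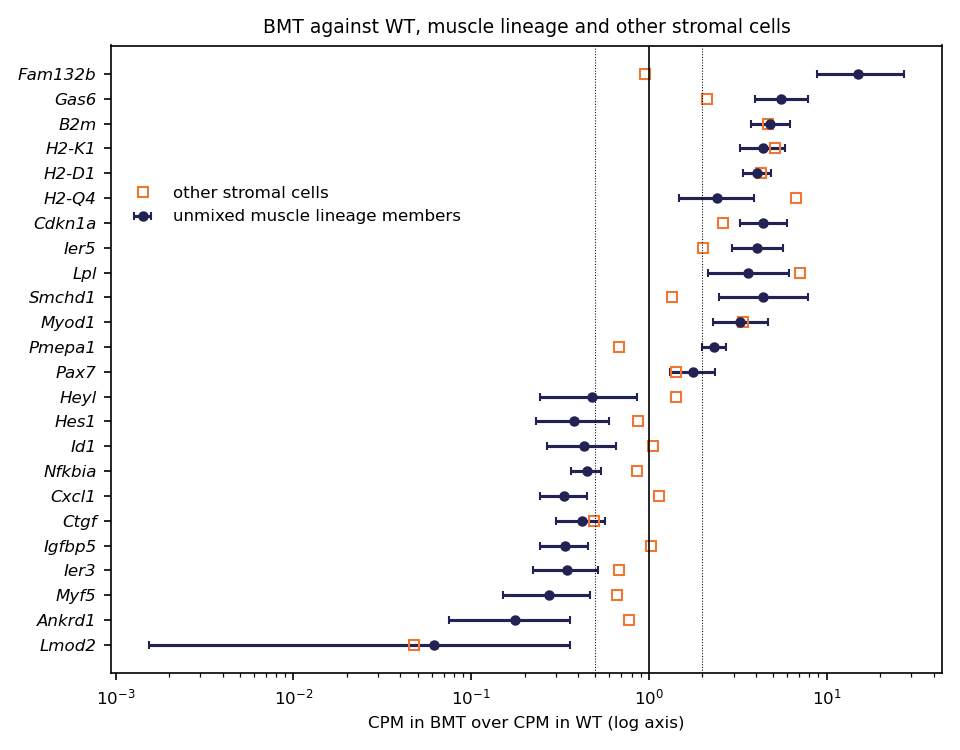
Ratio of CPM in BMT over WT on a log axis for named genes; dark circles are unmixed muscle lineage members with exact 95% intervals, open orange squares the other stromal cells, the solid line marks 1 and the dotted lines 2-fold. The MHC class I genes B2m, H2-K1 and H2-D1 have overlapping symbols in both cell sets, while Fam132b stands at 15.1 in members and near 1 in other stromal cells.

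The 5 aGVHD members are too few for levels and are given cell by cell. They held 5, 6, 7, 10 and 17 UMIs of Myod1, so each entered through Myod1. Single cells held 1 UMI of Pax7, 1 of Myf5 and 3 of Chrdl2. Every one had a UMI of the 5 satellite cell genes; Des was seen in 4 and Chodl in 3. B2m was at 1, 12, 18, 21 and 52 UMIs in cells of 1971, 2496, 2747, 3599 and 5015 UMIs, and H2-D1 at 10, 15, 8, 39 and 39 in the same order. Cdkn1a was at 0, 0, 1, 7 and 4.

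To set aGVHD beside the other libraries without the rule genes, unmixed cells with at least 3 of the 7 satellite cell genes were compared, 99 in WT, 27 in BMT and 11 in aGVHD, with median depths of 5557, 5792 and 2632 UMIs. Of these, 73, 23 and 3 were members. This set was chosen after the members' values were seen. Myod1 stood at 100 CPM in WT, 329 in BMT and 1135 in aGVHD, where 7 of 11 cells held it and 17 of the 37 UMIs were in 1 cell. The aGVHD level was 11.3-fold the WT level (interval 7.29 to 17.3), and 6.11-fold (3.49 to 10.3) without that cell. In BMT 23 of 54 UMIs were in 1 cell. The BMT level was 3.27-fold the WT level (2.22 to 4.82), and 1.88-fold (1.18 to 2.95), short of 2-fold, without that BMT cell. Myf5 stood at 315, 104 and 61.4 CPM, the last from 2 UMIs, and was 5.13-fold lower in aGVHD than in WT (1.40 to 42.7). Pax7 stood at 225, 420 and 123 CPM; the aGVHD to WT interval (0.147 to 1.43) held 1, as did that of Chrdl2 (0.478 to 3.77).

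In the same cells B2m stood at 242, 1315 and 4940 CPM, H2-D1 at 460, 1967 and 5646 and H2-K1 at 180, 859 and 2209, with every aGVHD cell holding all 3 genes. B2m in aGVHD was 20.4-fold the WT level (16.2 to 25.8), 13.8-fold without the highest cell, and 6.87-fold higher in the other stromal cells of these libraries. Cdkn1a stood at 158, 694 and 829 CPM. Nfkbia stood at 1973, 889 and 307 CPM and Cxcl1 at 1195, 268 and 61.4. The aGVHD values came from 10 UMIs of Nfkbia in 3 of 11 cells, 8 of them in 1 cell, and from 2 UMIs of Cxcl1. By their sums Hes1 and Id1, also lower in BMT, did not follow the order WT, BMT, aGVHD. Hes1 stood at 381, 164 and 522 CPM and Id1 at 390, 146 and 430. In aGVHD 14 of 17 Hes1 UMIs and 10 of 14 Id1 UMIs were in 1 cell. Without the highest cell of each gene, the aGVHD to WT ratio was 0.241 for Hes1 (0.0494 to 0.715) and 0.315 for Id1 (0.0851 to 0.817). The aGVHD to BMT ratios were then 0.560 (0.109 to 1.82) and 0.840 (0.212 to 2.44), and both intervals held 1. The departure of the sums from that order thus rested on single cells. Gas6 (106, 578 and 92.1) and Fam132b (34.0, 463 and 153) were highest in BMT. Myog had 7 UMIs in 1 WT cell and none in the 27 BMT and 11 aGVHD cells.

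**Figure D5:**
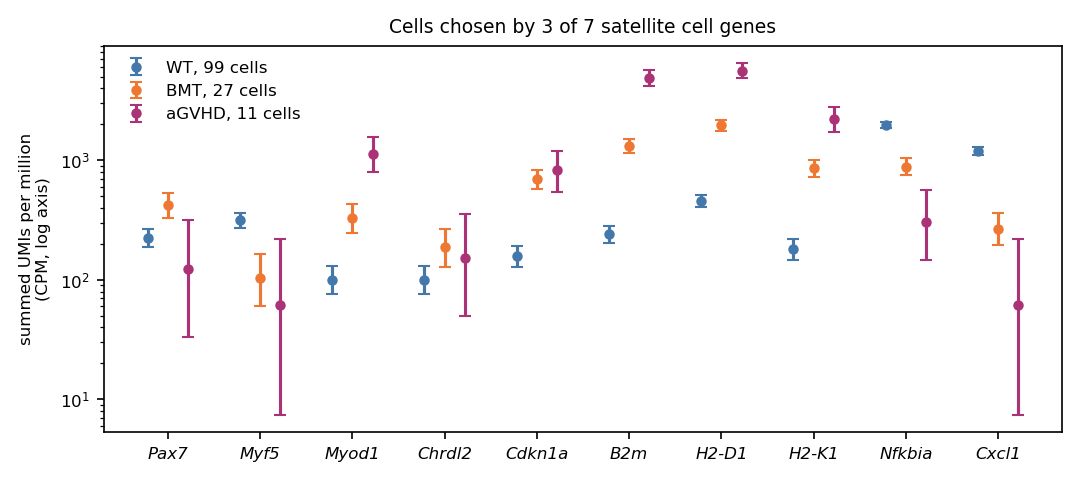
Summed CPM on a log axis of 10 genes in cells chosen by 3 of 7 satellite cell genes, with exact 95% Poisson intervals, for 99 WT, 27 BMT and 11 aGVHD cells. Myod1 and the MHC class I genes B2m, H2-D1 and H2-K1 are lowest in WT and highest in aGVHD, and Nfkbia and Cxcl1 are highest in WT.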

How the data were processed

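Bone marrow niche cells of 3 mouse groups were profiled by droplet single-cell RNA sequencing, 1 library each. The deposited values are raw UMI counts per gene and barcode, with no normalization, per the file headers written by Cell Ranger 3.1.0; the submitters' processing notes name Cell Ranger, Seurat and the mm10 build. The deposited matrices list all barcodes, so cells were called here (at least 1000 UMIs, 500 genes, under 10% mitochondrial). Library totals were 86575425, 44219063 and 67439098 UMIs. The 3 libraries shared 8 to 11 called barcodes by pair and no member barcode.

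UMIs were summed over cells of a set and divided by the set's total (CPM). Shares have exact Clopper-Pearson, sums exact Poisson and ratios exact conditional 95% intervals; all cover counting error only. The size rule was checked on simulated counts. Genes were named by rule: the 4 rule genes, Myog, Myf6 and Pax3, up to 8 members of each of 16 gene lists by UMIs, the 20 highest ratios of WT members over other cells, and up to 10 genes each way per comparison, ranked by the interval bound nearest 1; ribosomal, mitochondrial, haemoglobin and unnamed genes were left out of the ranking. A few further members of the lists past the size rule were named after their values were seen. The members and lists were chosen with earlier results of these data known. Empty droplets are barcodes of at most 100 UMIs; stromal cells have no Ptprc UMI and at least 5 UMIs over 8 matrix genes. Unmixed members, the split by Myod1 and the satellite cell gene set were added after the data were seen. Doublets were kept; the highest Scrublet scores (scanpy 1.11.5, 0.8% per 1000 cells) marked 4 WT members and no other. Gene positions come from GENCODE M21 by Ensembl identifier. The planned split by Myog was replaced by one by Myod1. Scripts ran in Python 3.11.15 with scipy 1.17.1. The values of 1 satellite cell identity gene are not reported here.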

Additional observations from a re-analysis of the deposited data

How the results depend on the processing

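No replicate could be left out, and no paired analysis was possible because each group has 1 library. The WT share of 1.63% was 2.02% with at least 2 marker UMIs and 0.80% with at least 5. It was 1.19% with Pax7, Myf5 and Myod1 only, 1.19% with a mitochondrial limit of 5% and 0.357% in thinned cells. In alternatives added after the data were seen it was 1.33% for members with a UMI of those 3 genes, 1.21% for unmixed members and 2.76% with at least 1 marker UMI. The BMT share of 0.829% was 0.442% with at least 5 marker UMIs, 0.502% with the mitochondrial limit of 5%, 1.36% of stromal cells and 0.235% in thinned cells. The aGVHD share of 0.0898% was 0.449% with at least 1 marker UMI and 0.233% by the satellite cell genes. The aGVHD to WT ratio of 0.0552 was 0.225 in thinned cells, 0.162 with at least 1 marker UMI and 0.143 by the satellite cell genes. Both ratios stayed below 1 under each alternative.

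In WT members the satellite cell list of 6918 CPM was 6532 with at least 2 marker UMIs, 8853 with the 3 factors only, 7134 without likely doublets, 9609 in unmixed members and 8287 as a mean over cells. The commitment list of 438 CPM was 655 with at least 2 marker UMIs, where the cell with 58 Myog UMIs enters, 528 with the 3 factors only, 534 in unmixed members and 488 as a mean over cells. The contractile list of 326 CPM was 378 with at least 2 marker UMIs and 268 without likely doublets. The Myog share of 0% was 0.694% with at least 2 marker UMIs and 0% in the others, and the split by a Myog UMI could not be run.

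Over all members, BMT against WT, 186 genes higher and 237 lower became 446 and 368 with a minimum of 20 UMIs, 112 and 109 with the 3 factors only, and 65 and 77 in unmixed members. Leaving out the cell with the most UMIs left 109 higher. In unmixed members the counts were 196 and 152 with a minimum of 20 UMIs, and 140 and 82 with a limit of 2% (27 BMT and 89 WT cells). Of 28 called genes tried under 5 added alternatives, 20 kept their call under each. Over all members 5 reversed: Acta2 (2.50), Tagln (2.72), Cxcl1 (1.05), Igfbp5 (1.09) and Sparcl1 (1.15). Chrdl2, not called, went to 0.693 over all members and 0.894 without its highest cell. The cause was not tested.

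The aGVHD values rest on 5 members with a median of 2747 UMIs. In unmixed members 1543 genes were measured between BMT and WT, and a gene below the minimum is not shown to be alike.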
